A study of Rattus norvegicus with 4 samples.

Results

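The BCL2 family genes described here are 9 rat genes that set how easily a cell enters apoptosis: Bcl2, Bcl2l1, Mcl1, Bcl2a1 and Bcl2l2 as survival members, and Bak1, Bid, Bad and Bcl2l11 as death members. They were found as the probes, controls aside, whose transcript accession belongs to 1 of these symbols, which gave 16 of the 45598 probes on the array and 9 of the 16579 genes with a named probe. Every gene had at least 1 probe. RNA came from 4 cultures of NR8383, a macrophage line that began as cells lavaged from the lung of a normal rat and that grows partly attached and partly floating. Cells at passage 20 had been seeded for 48 h. All 4 cultures had met the same titanium dioxide material, NRCWE001, for 4 h at 3 cm2 of particle surface per cm2, and each was measured on its own one-colour Agilent array. They are replicates 1 to 4 of 1 treated group, called biological replicates in the series' design text. Unexposed cells are named there too but were not analysed here, so nothing below says whether the particles raised or lowered a transcript. What could be compared was each probe with the background of its array, and each culture with the other 3.

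The family acts at the outer membrane of the mitochondrion. Bak1 and its relative Bax open pores in that membrane, through which cytochrome c leaves to start the caspases. Survival members hold the pore formers and the BH3-only proteins in check, and BH3-only members such as Bid, Bad and Bcl2l11 (BIM) carry stress signals to them. Much of this control acts on the proteins, through cleavage, phosphorylation and turnover, which an RNA array does not measure. In macrophages and other myeloid cells Mcl1 and Bcl2a1 are well known as survival factors, Mcl1 as a protein with a short life and Bcl2a1 as a target of NF-kappaB.

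Levels are log2 of the processed spot signal after subtraction of the array's 75th percentile, so 0 is the brightness of that percentile. A probe counted as detected where the scanning software flagged it well above background. The percentiles were 433, 347, 554 and 414 intensity units on replicates 1 to 4, and 15314 to 16708 probes on each array passed this flag. No spot was saturated. The median SD over the 4 arrays of the 7570 genes that entered the test was 0.16 on the log2 scale, and 39 of these genes (0.515%) varied more between arrays than genes of their level usually did. Of these 39 genes 36 had a spot in columns 1 to 72 of the array, as did 3586 of the genes tested. Replicate 3 stood lower than the rest, with a median deviation of -0.08 from each gene's mean and the lowest value of 45.3% of tested genes. On replicate 1 the median coefficient of variation of repeated probes was 11.1%, outside the range the software accepts, against 4.72% to 6.63% on the other arrays. Of the markers of the labelled cell type, macrophages, 10 of 12 were detected on every array and Marco and Adgre1 on none. Of the markers of other cells, 0 of 6 for lung epithelium and 0 of 3 for lymphoid cells were detected on every array. Sftpa1 of the first list was detected on 1 array, and Cd3d of the second on 3. For granulocytes 0 of 3 were detected on every array, and for fibroblasts and endothelium 2 of 4 were (Pecam1 and Cdh5).

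Transcripts of 8 of the 9 genes were detected on all 4 arrays, where the same held for 45.7% of all genes with a named probe. The exception was Bcl2. These 8 genes include both kinds of member, with 4 survival genes (Mcl1, Bcl2a1, Bcl2l1 and Bcl2l2) and 4 death genes (Bak1, Bid, Bad and Bcl2l11). Of the 16 probes 11 were detected on every array and 5 on none, and each probe was printed on a single spot. Since a probe's brightness depends on its sequence as well as on its transcript, the levels give no order of abundance among the genes. In RNA of a whole culture, fewer cells that express a gene and less of its RNA per cell cannot be told apart.

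**Figure D1:**
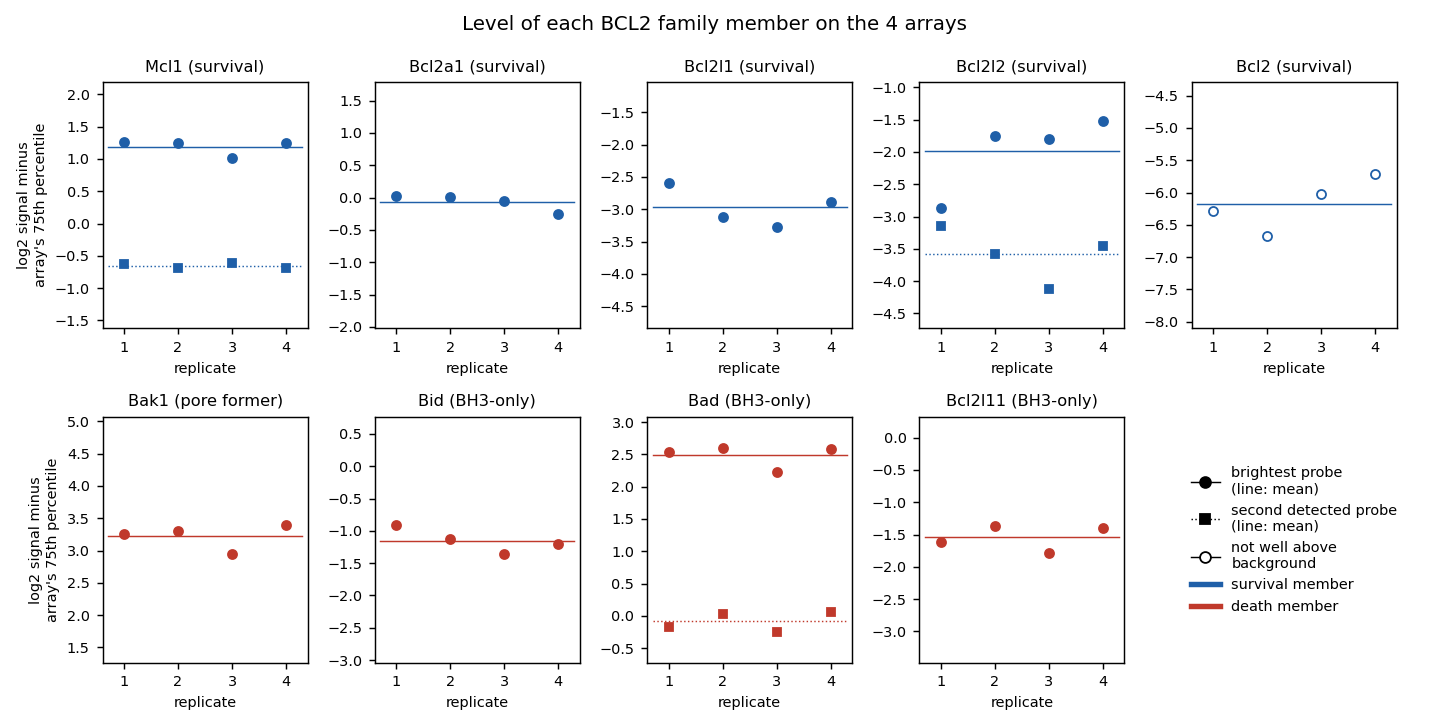
Level of each gene on the 4 arrays (log2 signal minus the array's 75th percentile), with circles for the brightest probe, squares for a further detected probe, lines for their means, blue for survival and red for death members, and open circles where a probe was not well above background (Bcl2). Replicate 1 of the brighter Bcl2l2 probe (-2.86) lies below the other 3 arrays, and its further probe does not repeat this.

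Mcl1 was measured by a brighter and a dimmer probe, both detected. The brighter probe read 1.26, 1.24, 1.02 and 1.24 on replicates 1 to 4, a mean of 1.19 ± 0.12 (SD, n = 4). Replicates 1, 2 and 4 lay together and replicate 3 lay below them, so that the SD was 0.011 without replicate 3. The other Mcl1 probe read -0.62, -0.69, -0.61 and -0.69, or -0.65 ± 0.04 (SD, n = 4), and was not lowest on replicate 3. The low value of replicate 3 therefore stood in 1 of the 2 Mcl1 probes. The difference between these probes had an SD of 0.14 over the arrays, and 40.4% of 1339 genes with 2 such probes had a smaller one.

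Bcl2a1 had 1 probe, with levels of 0.02, 0.01, -0.05 and -0.26 and a mean of -0.07 ± 0.13 (SD, n = 4). Its lowest culture was replicate 4, and replicates 1 to 3 lay together. The gap between the highest and the lowest culture was 1.22-fold, and without replicate 4 the SD was 0.043.

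Bcl2l1 encodes BCL-XL. It read -2.59, -3.12, -3.28 and -2.88, a mean of -2.97 ± 0.30 (SD, n = 4), with replicate 1 high and replicate 3 low. This was a dim signal, since the faintest probes well above background on these arrays lay between -5.06 and -4.45. Only 1 of the 4 Bcl2l1 probes was detected. The others, which the array assigns to other transcript accessions than that of the detected probe, gave no signal well above background. Those with means of -6.11 and -6.13 shared an accession, and the remaining probe had a mean of -6.93. How the gene's transcripts divide between those accessions was not measured.

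Bcl2l2, which encodes BCL-W, gave the widest spread of the 8 detected genes over 4 arrays. Without replicate 1 its SD was 0.15, and Bcl2l11 and Bak1 were widest at 0.24. The brighter Bcl2l2 probe read -2.86, -1.75, -1.80 and -1.53, a mean of -1.99 ± 0.60 (SD, n = 4). Replicate 1 lay 0.88 below the mean, and the other 3 cultures lay above it. The gap from lowest to highest was 2.53-fold. A further Bcl2l2 probe, also detected on all arrays, read -3.15, -3.59, -4.12 and -3.46, or -3.58 ± 0.41 (SD, n = 4). On that probe replicate 1 was the highest culture and replicate 3 the lowest. The low reading of replicate 1 was thus present on 1 probe and absent from the other. The dimmer probe was faint, with signals of 48.8, 28.9, 31.9 and 37.7 intensity units on replicates 1 to 4. The faintest probes well above background on these arrays lay between -5.06 and -4.45. The brighter minus the dimmer probe came to 0.28, 1.83, 2.32 and 1.93, with an SD of 0.90. Of the 1339 genes with 2 probes detected on all arrays, 99.8% had a smaller SD of this difference, and their median was 0.17. The spot of the brighter probe lies in column 42, and that of the dimmer probe, highest on replicate 1, in column 37. Of genes with a spot in columns 1 to 72, 4.32% were more than 0.5 below their mean on replicate 1, against 0.402% of genes with all spots beyond column 72. The brightest probes of Bcl2l1, Bak1 and Bid lie in these columns too and were not lowest on replicate 1. The part of spot position in the Bcl2l2 value was not tested.

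Bcl2, the founding member of the family, was represented by 1 probe. Its processed signals were 5.53, 3.39, 8.57 and 7.90 intensity units, on spots whose median signals were 51.0, 55.0, 58.5 and 58.0 over local backgrounds of 32.5, 36.0, 40.0 and 40.0. No array flagged it well above background, and 3 of 4 passed the software's more lenient flag for a positive and significant signal. A level for Bcl2 is therefore only bounded from above by the detection limit of 1 probe, and it entered no count of spread.

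The death genes had SDs between 0.17 and 0.20 over 4 arrays. Without replicate 3, the lowest array for each of them, these were 0.034 for Bad, 0.064 for Bak1, 0.13 for Bcl2l11 and 0.15 for Bid. Without replicate 1 they ran from 0.12 for Bid to 0.24 for Bcl2l11. Bak1, the pore former, read 3.26, 3.30, 2.94 and 3.39, a mean of 3.22 ± 0.19 (SD, n = 4). Its signals were 4151, 3414, 4260 and 4333 intensity units before scaling. Replicate 3 lay 0.28 below the mean and the other 3 cultures above it.

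Bid, which caspase-8 cleaves to link death receptors with the mitochondrion, read -0.92, -1.13, -1.36 and -1.21, a mean of -1.15 ± 0.19 (SD, n = 4). Replicate 1 was its highest culture and replicate 3 its lowest, 1.36-fold apart. Bid was measured by 1 probe.

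Bad, whose binding to survival members is blocked by phosphorylation, read 2.54, 2.60, 2.23 and 2.59 on its brighter probe, or 2.49 ± 0.17 (SD, n = 4). Its other probe read -0.17, 0.03, -0.25 and 0.07, or -0.08 ± 0.15 (SD, n = 4). Both probes were lowest on replicate 3. The difference between them varied by an SD of 0.10 over the arrays, and 22.6% of the 1339 genes with 2 such probes had a smaller one.

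Bcl2l11 read -1.62, -1.37, -1.79 and -1.39 on its detected probe, a mean of -1.54 ± 0.20 (SD, n = 4). Replicates 2 and 4 were high and replicates 1 and 3 low. Its other probe stayed under the well-above-background flag on all 4 arrays.

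**Figure D2:**
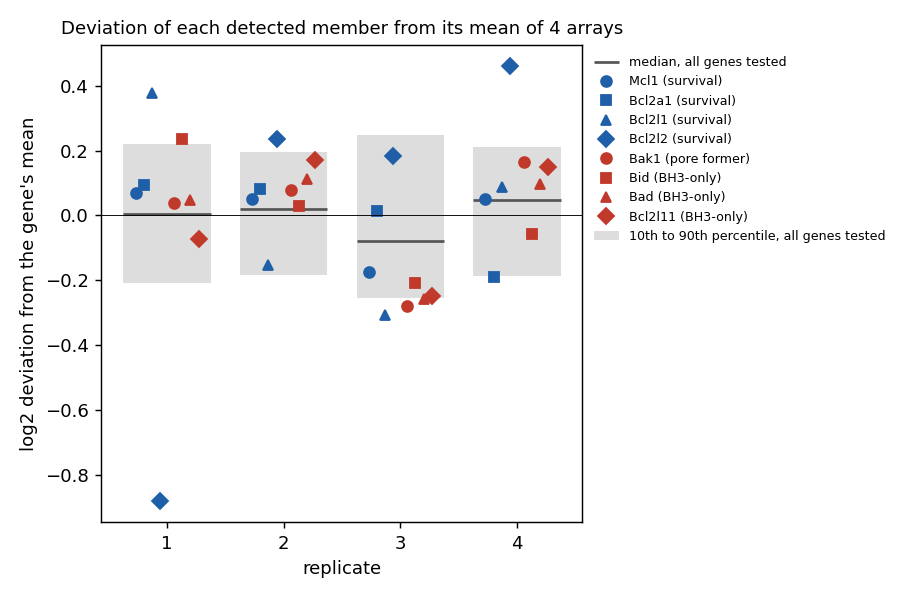
Deviation of each detected member from its own mean over the 4 arrays (log2), by replicate, for survival and death members. Grey boxes span the 10th to 90th percentile of all tested genes, with their median as a line. All 4 death members lie lowest on replicate 3, whereas among the survival members Mcl1 and Bcl2l1 do, Bcl2a1 is lowest on replicate 4 and Bcl2l2 on replicate 1. The brightest probe stands for each gene, and the dimmer Bcl2l2 probe was lowest on replicate 3.

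Set side by side by their brightest probes, the death genes shared the array on which they were lowest and the survival genes did not. The dimmer Bcl2l2 probe, a faint one, was lowest on replicate 3 (-4.12), whereas the dimmer Mcl1 probe was not. All 4 death genes were lowest on replicate 3, with a median deviation of -0.25 there, against 0.04, 0.09 and 0.12 on replicates 1, 2 and 4. Of the 4 survival genes 2 were lowest on replicate 3, with a median deviation of -0.08. Together 6 of the 8 detected genes were lowest on that array, where 45.3% of all tested genes were too. The median deviation of all tested genes on replicate 3 was -0.08, so a shift of that array as a whole moved with these values, and its part was not tested. The count was made after the values had been seen and carries no test.

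Survival and death probes were compared by the SD over the arrays of the survival minus the death level. Such an SD depends on each gene's own spread, smallest for Mcl1 at 0.12, as well as on shared movement. Pairs of genes outside the members were not computed, so the values have no reference for shared movement. Over 16 pairs this SD ran from 0.07 to 0.75 with a median of 0.24. The closest pairs were those of Mcl1, at 0.07 with Bad, 0.09 with Bak1, 0.12 with Bid and 0.13 with Bcl2l11. With the dimmer Mcl1 probe, which was not low on replicate 3, the same pairs stood at 0.20, 0.23, 0.19 and 0.24. The 4 pairs with the dimmer Bcl2l2 probe ran from 0.25 to 0.35. The 4 pairs with the brighter Bcl2l2 probe ran from 0.56 to 0.75, and without them the other 12 pairs reached at most 0.32, for Bcl2l1 with Bcl2l11. Among the death genes alone the 6 pairs had a median of 0.12, with Bak1 and Bad closest at 0.05. Pairs that share a gene share its error, and the 4 cultures give no direction to test.

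**Figure D3:**
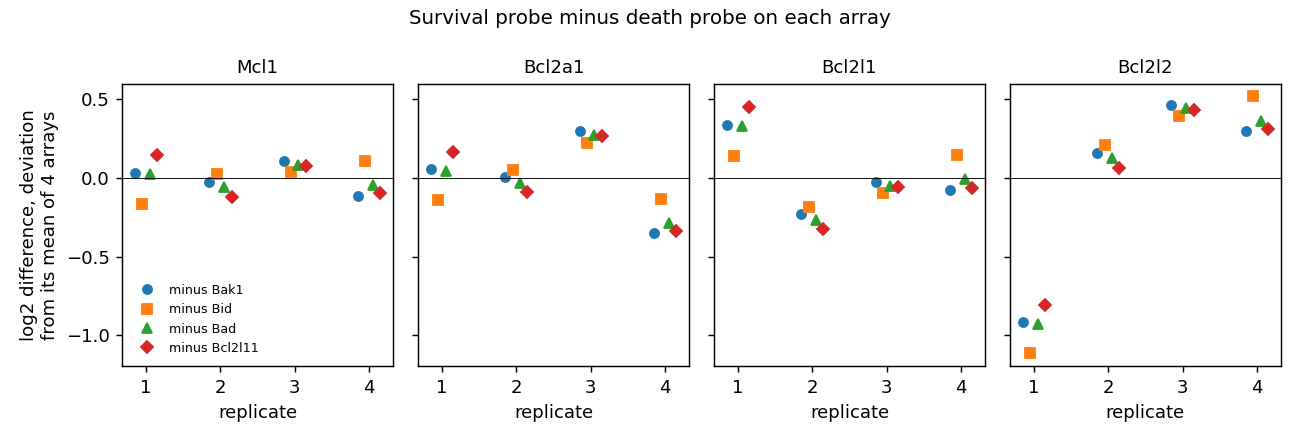
Survival level minus death level on each array, as the deviation of that difference from its mean over the 4 arrays (log2), with 1 panel per survival gene and 1 symbol per death gene. The brightest probe stands for each gene. Differences with Mcl1 stay nearest to 0 for that probe, and those with Bcl2l2 lie far below 0 on replicate 1.

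The test for excess variation, limma's prior variance with adjustment by the Benjamini-Hochberg method over 7570 genes, found 0 of the 8 detected genes above the spread usual at their level, where 0.515% of all tested genes were. Of the 7570 genes 505 had an unadjusted p under 0.05 by limma, and of the 8 only Bcl2l2. Its SD of 0.60 stood at 2.76 times the 0.22 usual at its level, with an adjusted p of 0.10 by limma, and 99.1% of tested genes had a smaller ratio. The adjusted p of Bcl2l2 depended on the choices made, between 0.017 and 0.99 over its alternatives, and without replicate 1 its SD was 0.15. The other 7 genes had adjusted p-values of 0.99 by limma. Their SDs were close to those of genes of like level, at 0.30 for Bcl2l1 against 0.26 and 0.12 for Mcl1 against 0.16. In 4 of the 8 genes the SD lay above the prior SD at the level and in 4 below it. More tested genes lay below that prior than above it. Bid and Bcl2l11, at 0.99 and 0.996 times it, had larger ratios than 59.6% and 60.1% of tested genes. Of the 8 genes 2 had an SD under the median of all tested genes. The SDs of the 4 survival genes ran from 0.12 to 0.60, without replicate 1 from 0.13 to 0.20, and without replicate 3 from 0.011 to 0.72. The median SD of the 8 genes, 0.19, was 0.17 without replicate 1 and 0.14 without replicate 3. These p-values cover the spread between 4 arrays, each with its own culture, so culture and array cannot be told apart.

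**Figure D4:**
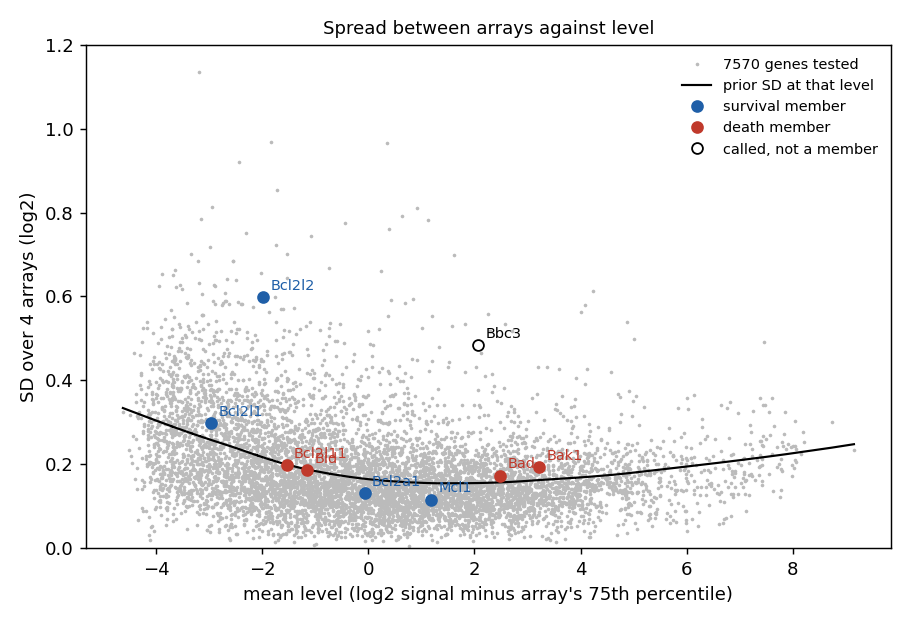
SD over the 4 arrays against mean level (both log2) for the 7570 genes tested, with the prior SD at each level as a line and the detected members marked. Mcl1 and Bcl2a1 lie under the line, Bcl2l2 lies well above it at 0.60, and Bbc3 is the relative that passed the test.

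Other genes of the family were partly detected. Of 14 listed, 13 had a named probe, 7 were detected on all arrays and 6 on none, a share near the 45.7% of all genes. Bbc3 (PUMA), a BH3-only gene induced by p53, was the 1 of these 7 that passed the test. It read 1.38, 2.40, 2.09 and 2.42, a mean of 2.07 ± 0.48 (SD, n = 4), with an adjusted p of 0.043 by limma. Replicate 1 was low, as it was for the brighter Bcl2l2 probe, and the Bbc3 spot also lies among the first 72 columns, in column 15. Of the 39 genes that passed the test, 36 had a spot in these columns. Without replicate 1 the SD of Bbc3 was 0.19 with an adjusted p of 0.98 by limma, and over 12 alternatives its call was lost in 9. In the other 8 of these its SD was 0.48 to 0.59, as large as or near the value given. The part of spot position was not tested here either.

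Bax, the other main pore former, read 4.42, 4.07, 3.90 and 4.14, or 4.13 ± 0.22 (SD, n = 4), and like Bak1 was lowest on replicate 3. Bmf, a BH3-only gene tied to the cytoskeleton, read 0.18, 0.07, -0.28 and 0.35, or 0.08 ± 0.26 (SD, n = 4), also lowest on replicate 3. Bnip3 and Bnip3l, related genes best known for mitophagy, ran the other way on their brightest probes, with their highest values on replicate 3. Bnip3l read 1.52, 1.23, 1.73 and 1.42, and Bnip3 had a mean of 0.09 ± 0.21 (SD, n = 4) on its brighter probe. The dimmer Bnip3 probe, also detected on all arrays, was highest on replicate 1, at -0.961 against -0.996 on replicate 3. Bcl2l12 had a mean of 1.84 ± 0.20 and Bcl2l14 one of 1.39 ± 0.16 (SD, n = 4 each). The pore-forming relative Bok and the BH3-only genes Pmaip1 (NOXA), Bik and Hrk were detected on none of the arrays, and neither were Bcl2l10 and Bcl2l15. Apart from Bbc3, the adjusted p-values of the detected relatives were between 0.84 and 0.99 by limma. Of these 7 genes 4 (Bax, Bmf, Bcl2l12 and Bcl2l14) were lowest on replicate 3, where 45.3% of all tested genes were.

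Downstream of the mitochondrion, 11 of 12 genes of the caspase pathway were detected on all arrays, where 45.7% of all genes were. The 11 include Cycs (cytochrome c), Apaf1 and Casp9, which form the apoptosome, and Diablo and Htra2, which relieve the inhibitors of caspases. Birc3, a relative of Xiap, was detected on 1 array and has no level here. None of the 11 passed the test, where 0.515% of all tested genes did. By limma 505 of the 7570 tested genes had an unadjusted p under 0.05, and 1 of these 11 did. That gene was Cycs, at 0.82, 0.31, 1.09 and 0.68, with an adjusted p of 0.45 by limma. A dimmer Cycs probe, also detected, read 0.71, 0.36, 0.64 and 0.34, lowest on replicate 4. Xiap, a direct inhibitor of caspases, had a level of -2.50 ± 0.34, with an SD of 0.10 without replicate 2, against 0.21 for Cycs. Its relative Birc2 (-1.93 ± 0.19) and the nuclease Endog (0.15 ± 0.16) had smaller SDs over 4 arrays, and Birc5 (2.67 ± 0.05) and Casp6 (-0.68 ± 0.05, SD, n = 4 for each) were nearly level. The median SD of the 11 genes was 0.12, against 0.19 for the 8 members and 0.16 for all tested genes. In 4 of the 11 the lowest culture was replicate 3, as it was for 45.3% of all tested genes.

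Of 16 genes whose products act on the members or bind them, 15 had a named probe. Of these 15, 12 were detected on all arrays, where 45.7% of all genes were. None of these 12 passed the test, where 0.515% of all tested genes did. By limma 505 of the 7570 tested genes had an unadjusted p under 0.05, and 1 of the 12 did. Akt1, a kinase that phosphorylates Bad, was that gene, at 2.17, 2.17, 1.64 and 1.77, with an adjusted p of 0.70 by limma. Casp8, which cleaves Bid, stood at -2.18 ± 0.04 on its brighter probe and at -2.48 ± 0.14 on the other (SD, n = 4 for each). Fbxw7, part of a ubiquitin ligase for Mcl1, read -1.85, -1.87, -1.71 and -1.86, with replicate 3 the highest on this probe. Vdac1, a channel of the outer membrane, had a mean of 4.90 ± 0.19 on its brightest probe, and 0.13 and 0.05 on its other detected probes. Vdac3 and Ywhaz, a 14-3-3 protein of the kind that holds phosphorylated Bad, had means of 1.22 ± 0.21 and 1.44 ± 0.21 (SD, n = 4 for each). Foxo3, a transcription factor for Bcl2l11, was detected on 3 arrays, and Usp9x, a deubiquitinase of Mcl1, and the kinase Pim3 on none. In 7 of the 12 detected genes replicate 3 was lowest, as it was for 45.3% of all tested genes.

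**Figure D5:**
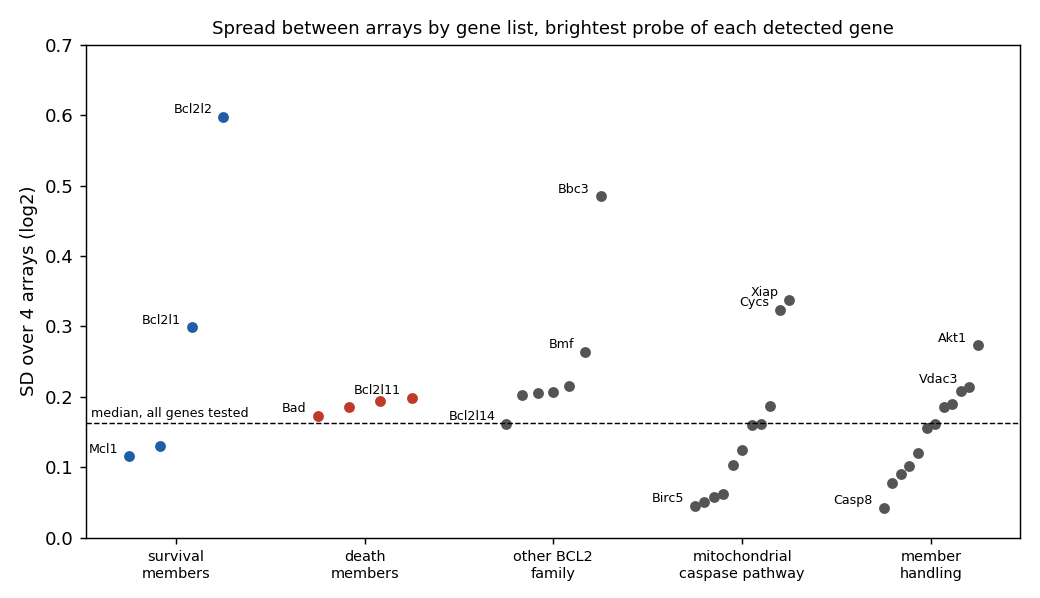
SD over the 4 arrays (log2) of every detected gene, by list, with the median of all tested genes (0.16) as a dashed line. Over 4 arrays death members lie between 0.17 and 0.20 and survival members between 0.12 and 0.60. Without replicate 3, the lowest array of all death members, these run from 0.034 to 0.15 and survival members from 0.011 to 0.72. Without replicate 1 death members run from 0.12 to 0.24 and survival members from 0.13 to 0.20. Xiap lies above Cycs over 4 arrays and below it without replicate 2.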

How the data were processed

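Each of the 4 arrays carried RNA of 1 culture, and all lay on 1 slide, per the file headers. The deposited values are spot intensities processed by the authors with Agilent Feature Extraction 11.0.1.1 (also in the submitters' processing notes), background-subtracted but not scaled between arrays, with flags for signal over background and outlying spots. Flagged outlying spots (634 to 669 of 58717 per array) were left out. Levels were log2 intensities minus each array's 75th percentile over the remaining non-control spots, and a gene's brightest probe stood for it. Probes were named by accession through the RefSeq gene table of GRCr8 (21109 of 45598). The array's own annotation uses another build, so no coordinates are given. Detection required the flag for well above background on over 0.5 of a probe's spots.

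Excess variation was tested in R 4.3.3 with limma 3.58.1: variance over the arrays (3 degrees of freedom) over a robust prior with a trend on level (24.3), upper tail of F, Benjamini-Hochberg over 7570 genes, threshold 0.05. The test was tested on simulated data. Members and lists were chosen with earlier results of these data known. Named genes were all 9 members, all measured relatives and, of each other list, the 4 largest and 2 smallest SDs, genes not detected on all arrays and calls; genes named beside these without values serve as background. Some genes of the caspase list are not reported here and were left out of its counts. The number of arrays limits the precision.

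Alternatives were normexp on median signals (offset 50, as mean signals were not used here), quantile normalization, a median scale, flagged spots kept, the mean over probes, other detection rules, other priors, no filter on dim genes, spots beyond column 72 and each replicate left out. The count of members lowest on replicate 3 and the differences with dimmer probes were added after seeing the data.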

Additional observations from a re-analysis of the deposited data

Results flagged for a closer look

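Dixon's ratio, the gap between the most extreme culture and its nearest neighbour over the whole range of the 4 cultures, was computed for 41 sets of values: the 11 detected probes of the members and the brightest probe of the 30 tested genes of the other lists. It passed the 95% critical value for 4 samples in 3 of them, where chance gives about 5%. For the brighter Mcl1 probe the ratio was 0.92, set by the low value of replicate 3 (1.02, against 1.24 to 1.26 in the other cultures). For Cflar, whose product restrains caspase-8 and which is named here after its values were seen, it was 0.93, set by the high value of replicate 3 (-2.08, against -2.41 to -2.39). For Fbxw7 it was 0.86, also set by a high replicate 3 (-1.71, against -1.87 to -1.85). The other Fbxw7 probe, also detected, was not apart there, at -2.97 on replicate 3 and -2.96 on replicate 4. The other Mcl1 probe did not stand apart on replicate 3, at -0.61 against a mean of -0.65. The Bcl2l2 probes did not pass this value.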

How the results depend on the processing

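The number of genes that varied in excess, 39, was 206 with normexp, 12 with quantile normalization, 9 with a prior without robust estimation, 0 without a trend, 127 without the filter on dim genes, 5 of genes beyond column 72, and 10 to 77 with a replicate left out (10 without replicate 3, 77 without replicate 2). The count among the members, 0, became 1 with normexp and 1 without the filter, and was 0 to 1 with a replicate left out (1 without replicate 2). Each time this was Bcl2l2, with limma adjusted p-values of 0.035, 0.036 and 0.017. The cause of these differences was not tested. Detection of 8 of 9 members, without Bcl2, was the same under every detection rule tried, and 6 or 7 of the 8 were lowest on replicate 3 in every alternative run, where 37.8% to 55.9% of all genes were; the count of 7 came without replicate 1 (55.9%) and without replicate 4 (50.8%). The median SD of the members ran from 0.14 to 0.21. Bbc3 kept its call with normexp, without the filter and without replicate 2. With 1 group, no paired analysis was possible because there is no other group to pair with. Scaling to the median of detected probes moved every member's level by 0.56, normexp moved them by -0.20 to 0.89, and the mean over detected probes by -1.28 to 0, most for Bad.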

Other observations

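Probes of the same relative differed in how they read the cultures. The dimmer Bax probe had a mean of 3.34 ± 0.09 (SD, n = 4), where the brighter one had an SD of 0.22. The dimmer Bmf probe was at -3.57 ± 0.04 (SD, n = 4), where the brighter one had an SD of 0.26.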
